A study of Mus musculus with 2 samples.

Results

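Transcripts of 44 nuclear genes for mitochondrial protein import, mitochondrial fusion and fission, voltage-dependent anion channels and mitochondrial DNA maintenance were compared between the second polar body (PB2) and the zygote of the mouse. The genes were taken by symbol from the 11262 genes of the table. They comprise the Tomm, Timm and Chchd genes, Samm50, the metaxins Mtx1 and Mtx2, Pam16, Immt, Mfn1, Mfn2, Opa1, Dnm1l, Fis1, Mff, Vdac1, Vdac2, Vdac3, Tfam and Polg. Mtx3 and Polg2 would also fit the rule but were not analysed here, and nor was Chchd4, the oxidase that imports many of the small proteins described below.

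PB2 is the small cell that the egg gives off at the end of its second meiotic division, after fertilization, and the zygote is the fertilized 1-cell embryo it comes from. Both groups were untreated C57BL/6 embryos at the 1-cell stage, grown in KSOM medium, and each group is 1 library of polyadenylated RNA made from pooled material. Late in the 1-cell stage the zona pellucida was dissolved in acid, and PB2 was separated from its zygote with trypsin and pipetting. With 1 library per group the spread between samples is not known, no test was run, and each difference below is a description of these 2 libraries.

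Most mitochondrial proteins are encoded in the nucleus, made in the cytosol and brought in through membrane complexes. The TOM complex forms the gate of the outer membrane, the TIM23 complex carries proteins with a presequence into or across the inner membrane, small TIM chaperones escort hydrophobic carrier proteins to the TIM22 complex, and the SAM complex inserts barrel-shaped proteins such as the VDAC channels into the outer membrane. Mitochondria of eggs are passed from mother to embryo, are small and round, and their shape depends on the balance between the fusion GTPases Mfn1, Mfn2 and Opa1 and the fission GTPase Drp1, encoded by Dnm1l.

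Values are TPM, transcripts per 1000000 transcripts, corrected for gene length, so that levels of different genes can be set side by side. TPM are shares, and fewer copies of a transcript in the cell cannot be told apart from more RNA of other genes. The measure of difference, named log2 ratio below, is the log2 of PB2 TPM plus 1 divided by zygote TPM plus 1, and it is above 0 where PB2 is higher. The pseudocount of 1 TPM understates the difference of genes near 0. A gene was compared if it had at least 1 TPM in either library, which held for 10645 genes and for all 44 members.

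The table's values added up to 92.7% of a full library in the zygote and 89.8% in PB2, and the depth is unknown because TPM carries no read number. All 12 oocyte markers looked up were present, from 62.7 to 13021 TPM in the zygote and from 99.5 to 10496 TPM in PB2, and their summed level was 20948 and 22475 TPM, much of it from Oosp1 (13021 and 10496 TPM). Of these markers 4, or 33.3%, passed 2-fold towards PB2, where 18.9% of all genes compared did so. The highest ratios were those of Zar1, with 157.9 and 1019.2 TPM, and Mos, with 62.7 and 310.1 TPM. Bmp15, Zp2, Nlrp5 and Oosp1 had lower values in PB2, by less than 2-fold. The median log2 ratio of the 12 was 0.49, against 0.21 over all genes compared. With the trend on transcript GC content taken out these medians were 0.18 and 0.01, and with that on transcript length 0.48 and 0.00. Of 12 markers of cumulus and granulosa cells, the somatic cells around the egg, 3 were in the table and the others were not analysed here. Cyp19a1 had 72.2 TPM in the zygote against 70.9 in PB2, Fshr 2.2 and 3.3 TPM, and Col4a1 0.6 and 1.5 TPM. Their part in the results below was not tested.

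Sequences of 6 small TIM chaperones are shown first, because these genes hold the most abundant member and one of those with the lowest relative level in PB2. Each protein carries paired cysteines that form disulfide bonds in the space between the membranes, and these bonds trap the protein there after import. The coding stretches below run from shortly before the first cysteine pair to shortly after the last, 5′ to 3′, with the cysteine codons in capitals. In the 6 genes shown the cysteine codons of each pair have 3 codons between them. The transcripts are the principal ones of GENCODE M21 on GRCm38, and the coordinates run from the first to the last base shown, introns included.
Timm8b (chr9:50604948-50605031, plus strand): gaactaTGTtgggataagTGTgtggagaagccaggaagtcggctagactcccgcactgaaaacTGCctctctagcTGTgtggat
Timm8a1 (chrX:134538196-134541468, minus strand): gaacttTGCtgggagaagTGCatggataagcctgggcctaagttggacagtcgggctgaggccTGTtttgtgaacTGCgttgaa
Timm8a2 (chr14:122034807-122034890, plus strand): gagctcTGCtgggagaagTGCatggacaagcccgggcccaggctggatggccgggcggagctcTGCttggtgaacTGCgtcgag
Timm9 (chr12:71123660-71125521, minus strand): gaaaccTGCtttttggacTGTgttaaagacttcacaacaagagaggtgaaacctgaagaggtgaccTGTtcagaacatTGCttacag
Timm10 (chr2:84829797-84829886, plus strand): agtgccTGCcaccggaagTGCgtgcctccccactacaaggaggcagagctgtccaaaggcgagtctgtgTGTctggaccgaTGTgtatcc
Timm13 (chr10:80900236-80900541, minus strand): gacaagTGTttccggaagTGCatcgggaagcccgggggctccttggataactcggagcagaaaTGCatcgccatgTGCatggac

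The VDAC genes are shown because they differ in direction between the libraries. VDAC proteins form the main pore of the outer membrane for ATP, ADP and other small solutes. The stretches are the first in-frame window of 120 coding bases of Vdac1 that aligns with both paralogs without a gap, and capitals mark the bases of Vdac2 and Vdac3 that differ from Vdac1. There are 39 such bases in Vdac2 and 38 in Vdac3, and over the whole coding sequence 70.8% and 66.7% of the aligned bases are the same as in Vdac1.
Vdac1 (chr11:52374311-52376402, plus strand): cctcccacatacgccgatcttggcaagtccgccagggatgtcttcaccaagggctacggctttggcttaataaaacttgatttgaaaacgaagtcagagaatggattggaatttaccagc
Vdac2 (chr14:21832895-21837755, plus strand): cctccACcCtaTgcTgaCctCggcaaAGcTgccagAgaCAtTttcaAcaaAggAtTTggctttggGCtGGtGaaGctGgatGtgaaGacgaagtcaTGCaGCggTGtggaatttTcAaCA
Vdac3 (chr8:22583725-22588783, minus strand): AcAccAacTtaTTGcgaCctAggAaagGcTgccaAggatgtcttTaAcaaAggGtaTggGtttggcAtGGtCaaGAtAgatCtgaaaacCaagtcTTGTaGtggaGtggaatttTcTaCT

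Across the 44 members, transcripts were lower in PB2 for 29 genes, or 65.9%, higher for 14 and equal for 1. Among all genes compared 40.0% were lower in PB2. The median log2 ratio of the members was -0.29, against 0.21 over all genes compared. The members added up to 4546 TPM in the zygote against 3288 in PB2, so that their summed level was 1.38 times higher in the zygote. Over all genes of the table the same ratio was 1.03. Much of the members' gap came from Timm8b, with 1128 TPM in the zygote against 591 in PB2, and Vdac3, with 839 and 349 TPM. Without Timm8b the ratio was 1.27, and the value of Vdac3 is uncertain because of shared sequence, as described below.

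A zygote level at least 2-fold above that of PB2 was found for 9 members, or 20.5%, against a background of 8.09% of all genes compared. These were Chchd5, Mtx2, Timm10, Vdac2, Timm21, Vdac3, Timm50, Chchd1 and Timm17a. The opposite, a PB2 level at least 2-fold above the zygote, was found for 4 members, or 9.09%, against a background of 18.9%, namely Vdac1, Mfn2, Mfn1 and Polg. Taken without direction, 29.5% of the members and 27.0% of all genes were at least 2-fold apart. With the log2 ratios centred on the median of all genes compared, a shift of 0.21, 1 member, Vdac1, passed 2-fold towards PB2 and 11 passed it towards the zygote, where 13.0% and 12.1% of all genes did so.

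**Figure D1:**
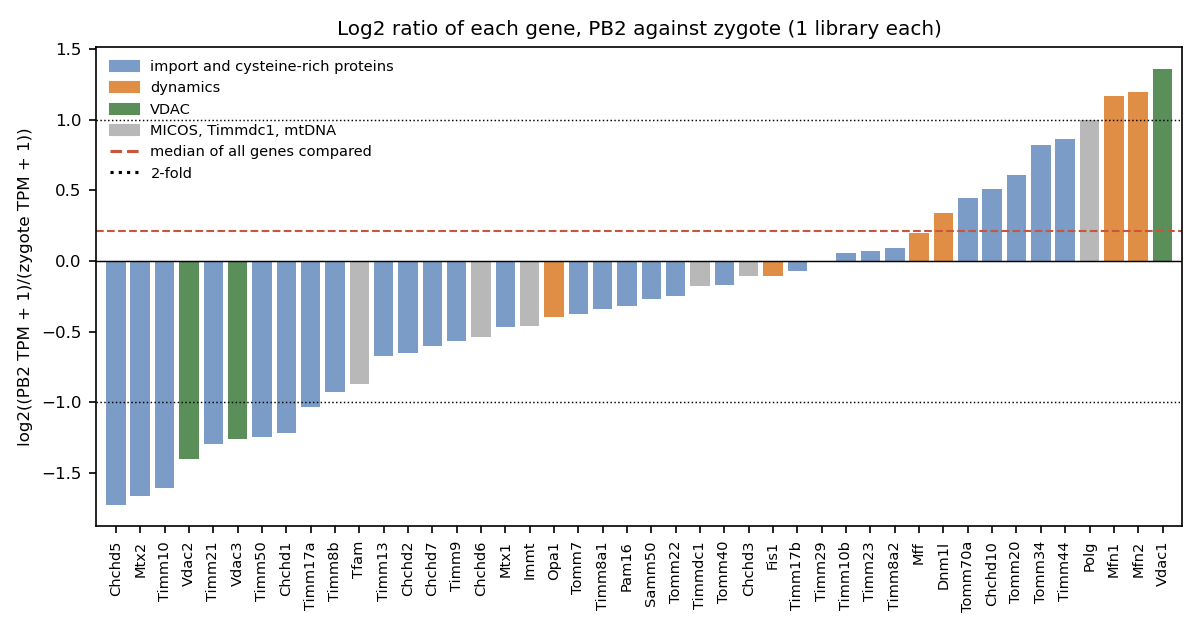
Log2 ratio of each of the 44 members, ordered from the lowest to the highest, with bars coloured by role, a dashed line at the median of all genes compared (0.21) and dotted lines at 2-fold. Bars run from -1.73 for Chchd5 to 1.36 for Vdac1, and 9 bars reach the lower dotted line against 4 at the upper one.

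Levels of the members spanned more than 3 orders of magnitude and kept much the same order in both libraries, with a Spearman's rho of 0.94 between zygote and PB2 over the 44 genes, against 0.91 over all genes compared. In the zygote Timm8b with 1128 TPM, Vdac3 with 839 TPM and Timm23 with 516 TPM made up 54.6% of the summed level. In PB2 the same genes made up 45.1%, and the order at the top was Timm8b with 591 TPM, Timm23 with 543 TPM, Dnm1l with 371 TPM and Vdac3 with 349 TPM. Timm8b was thus first in both libraries, ranked 123 of 11262 genes in the zygote and 211 in PB2. The values of Vdac3 and Timm23, and with them these shares and the order of these genes, are uncertain because of shared sequence, as described below. At the other end, 42 members reached 1 TPM in each library and 40 in both. The exceptions were Tomm20 and Polg in the zygote and Mtx2 and Chchd5 in PB2.

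**Figure D2:**
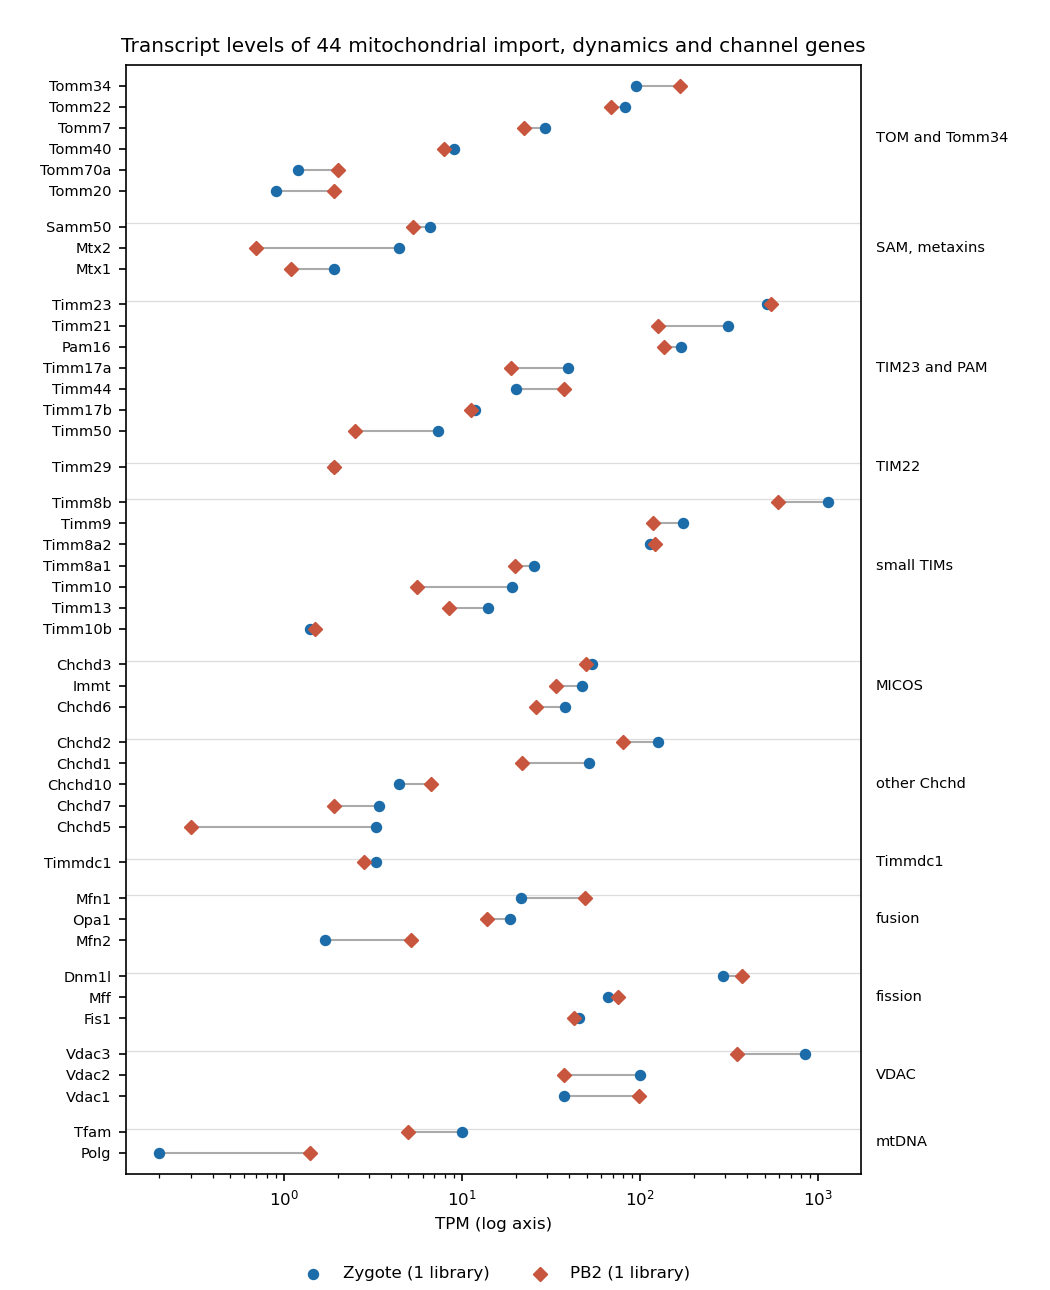
TPM of each member on a log axis, grouped by role, with the zygote as circles and PB2 as diamonds, 1 library each. The marker pairs of Timm8b, Vdac3, Timm21 and Timm10 lie with PB2 to the left of the zygote, those of Vdac1, Mfn1, Mfn2 and Polg with PB2 to the right, and Timm29 has the same value in both.

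In the TOM complex no gene was 2-fold apart by the log2 ratio with a pseudocount of 1, but Tomm20 reached 2-fold with pseudocounts of 0.1 (1.00) and 0.01 (1.07), and Tomm40 was at -1.17 with the GC trend removed. Tomm22, the central receptor, had 81.8 TPM in the zygote against 68.8 in PB2, and Tomm7, a small subunit, had 29.3 and 22.4 TPM. Tomm40, which encodes the channel itself, had 9 and 7.9 TPM. These subunits were a little lower in PB2, with log2 ratios from -0.37 to -0.17. The presequence receptor Tomm20 and the carrier receptor Tomm70a were of very low abundance, with 0.9 and 1.2 TPM in the zygote and 1.9 and 2 TPM in PB2. Tomm34, a cytosolic co-chaperone of import rather than a subunit, was the most abundant of this group and higher in PB2, with 94.4 TPM in the zygote against 167.8 in PB2, a log2 ratio of 0.82 that was 0.11 with the GC trend removed. The median of these 6 genes was 0.14, but it was below 0 with the ratios centred (-0.07), with the GC trend removed (-0.06) and with the length trend removed (-0.03).

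The outer membrane insertion genes were all lower in PB2. Samm50, the barrel that inserts other barrel proteins, had 6.6 TPM in the zygote against 5.3 in PB2. Its partner Mtx1 had 1.9 and 1.1 TPM. The other metaxin, Mtx2, had 4.4 TPM in the zygote against 0.7 in PB2, a ratio that the rounding of the values places between 5.8 and 6.85 in favour of the zygote. All 3 were of low abundance, where counting error that cannot be given here is largest.

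The presequence translocase was uneven. Timm23, the central channel subunit, had 515.9 TPM in the zygote against 542.5 in PB2, a log2 ratio of 0.07 that was -0.14 with the ratios centred. Timm17a, which forms the channel with it, was 2.11 times higher in the zygote, with 39.6 against 18.8 TPM, while its paralog Timm17b had 11.9 and 11.3 TPM. Timm17b therefore made up 23.1% of the Timm17 level in the zygote and 37.5% in PB2. The receptor Timm50 was 2.92 times higher in the zygote, at 7.3 against 2.5 TPM, and Timm21, which links the translocase to the outer membrane and to respiratory chain assembly, was 2.47 times higher, at 312.1 against 126.2 TPM. Of the import motor, Pam16 had 169 TPM in the zygote against 135.3 in PB2, a direction that turned, to 0.22, with the length trend removed. Timm44, which anchors the motor's Hsp70 at the channel, went the other way, with 20.2 and 37.6 TPM and a log2 ratio of 0.86. The 7 genes had a median log2 ratio of -0.32. Timm29, a subunit of the TIM22 carrier translocase, had 1.9 TPM in both libraries.

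The 7 small TIM chaperones, 6 of them with their cysteine codons shown above, added up to 1476 TPM in the zygote against 865 in PB2, 1.71 times higher in the zygote. Most of this came from Timm8b, with 1128 TPM in the zygote against 591 in PB2 and a log2 ratio of -0.93. That ratio was -0.34 with the length trend removed, and past 2-fold with the zygote values scaled (-1.01), with the ratios centred (-1.14) and with the GC trend removed (-1.19). Timm9, a subunit of the main carrier chaperone, had 174.4 and 117.5 TPM. Its partner in that chaperone, Timm10, was 3.41 times higher in the zygote, with 19.1 TPM there and 5.6 TPM in PB2. Timm13, the partner of the Timm8 proteins, had 14 and 8.4 TPM. The exceptions were Timm8a2, with 113.1 TPM in the zygote against 120.6 in PB2 but a log2 ratio of -0.41 once the GC trend was removed, and the low Timm10b, with 1.4 and 1.5 TPM. Timm8a1, the X-linked paralog whose human counterpart is mutated in a deafness-dystonia syndrome, had 25.5 and 19.9 TPM. The median log2 ratio of the 7 genes was -0.57, with 1 gene past 2-fold. Of the Timm8 paralogs, Timm8a1 and Timm8a2 share 77.6% of their aligned coding bases, and Timm8b shares 58.3% with Timm8a1.

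Cysteine-rich Chchd genes were mostly lower in PB2. Chchd2, a protein of the intermembrane space linked to respiration, had 125.7 TPM in the zygote against 79.8 in PB2. Chchd1, a subunit of the mitochondrial ribosome, was 2.39 times higher in the zygote, at 51.7 against 21.6 TPM. Chchd5 had 3.3 TPM in the zygote against 0.3 in PB2, and rounding allows a ratio from 9.29 to 13.4 in favour of the zygote. Chchd7 had 3.4 and 1.9 TPM. Chchd10, the close relative of Chchd2, was the only one of the 5 with a higher value in PB2, 6.7 against 4.4 TPM, and its log2 ratio of 0.51 was -0.36 with the trend on GC content removed. The 3 genes of the MICOS complex, which holds the necks of the cristae, were lower in PB2 by less than 2-fold, except that Chchd6 was at -1.38 with the GC trend removed. Immt had 47 TPM in the zygote against 33.9 in PB2, Chchd3 had 53.7 and 49.8 TPM, and Chchd6 had 38 and 25.9 TPM. Timmdc1, an assembly factor of respiratory complex I named for its likeness to translocase subunits, had 3.3 and 2.8 TPM.

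Of the 6 fusion and fission genes, 4 had higher values in PB2 and 2 lower ones. Of all genes compared, 59.2% had higher values in PB2 and 40.0% lower ones. Mfn1, the outer membrane fusion GTPase, had 21.3 TPM in the zygote against 49.1 in PB2, a log2 ratio of 1.17. Its paralog Mfn2, which also tethers mitochondria to the endoplasmic reticulum, had 1.7 and 5.2 TPM, a log2 ratio of 1.20 with rounding bounds of the ratio between 2.94 and 3.18. Both mitofusins were thus at least 2-fold higher in PB2, and Mfn1 made up 92.6% of their sum in the zygote and 90.4% in PB2. With the ratios centred, both stayed above 0 but under 2-fold, at 0.96 for Mfn1 and 0.99 for Mfn2. The same held with the length trend removed, at 0.82 and 0.86, while with the GC trend removed Mfn1 was past 2-fold and Mfn2 was at 0.69. Opa1, the inner membrane fusion GTPase, was lower in PB2, with 18.5 TPM in the zygote against 13.8 in PB2.
On the side of fission, Dnm1l had 292.9 TPM in the zygote against 370.9 in PB2, its receptor Mff had 65.6 and 75.3 TPM, and the adaptor Fis1 had 45.6 and 42.3 TPM. None was 2-fold apart, and the median of 0.20, close to that of all genes, was -0.01 both with the ratios centred and with the length trend removed. The directions of all 3 genes turned with the length trend removed, to -0.01 for Dnm1l, -0.05 for Mff and 0.21 for Fis1.

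The VDAC paralogs differed in direction. Vdac3 had 838.9 TPM in the zygote against 348.6 in PB2, 2.41 times higher in the zygote. Vdac2 had 100 and 37.2 TPM, 2.69 times higher in the zygote. Vdac1 had 37.5 TPM in the zygote against 97.9 in PB2, 2.61 times higher in PB2 and the highest log2 ratio of the 44 members, 1.36. As a result the order of Vdac1 and Vdac2 was exchanged between the libraries, and the share of Vdac1 in the VDAC sum went from 3.84% in the zygote to 20.2% in PB2. The sum itself was 976 TPM in the zygote against 484 in PB2. Vdac3 made up 85.9% of it in the zygote and 72.1% in PB2. The sum and the shares are therefore uncertain because of the shared sequence of Vdac3, as described below. All 3 differences stayed past 2-fold in the same direction under each of the 7 ways of computing the log2 ratio. Vdac1 was at 1.00 once the trend on GC content was removed. None of the 7 ways changes how reads were assigned to genes.

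**Figure D3:**
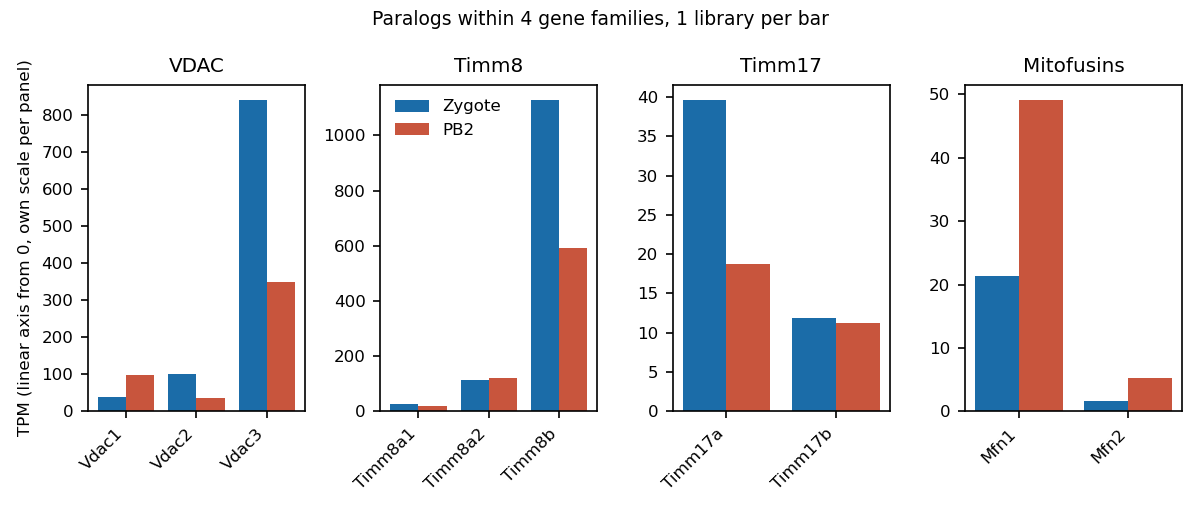
TPM of paralogs in 4 families on linear axes from 0, with the zygote in blue and PB2 in red, 1 library per bar and a separate scale per panel. Vdac1 (37.5 and 97.9 TPM) and both mitofusins are taller in PB2, while Vdac2, Vdac3, Timm8b and Timm17a are taller in the zygote.

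Of the genes for mitochondrial DNA, Tfam, which packages it and starts its transcription, had 10 TPM in the zygote against 5 in PB2, a log2 ratio of -0.87. That ratio was past 2-fold with the ratios centred (-1.08) and with the length trend removed (-1.22). Polg, the catalytic subunit of the polymerase of mitochondrial DNA, had 0.2 TPM in the zygote against 1.4 in PB2. Its log2 ratio of 1.00 lies just at the 2-fold limit, and since the deposited values have 1 decimal, the plain ratio of TPM could lie anywhere from 5.40 to 9.67. The log2 ratio of Polg was 0.99 with the zygote values scaled and 0.79 with the ratios centred. With the GC trend removed it was 0.52, and with the length trend removed 0.71. Pseudocounts of 0.1 and 0.01 gave 2.32 and 2.75.

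Some members share sequence with other genes, which can affect how reads are assigned. The longest coding transcript per member was searched for stretches of 50 bases that also occur in transcripts of other GENCODE M21 genes, and 38 members shared under 15% of their stretches. Timm23 shared 90.9%, all of it with Gm10273, which itself had 4.5 TPM in the zygote against 7.6 in PB2. Pam16 shared 88.7% with Gm9803, Chchd2 48.4%, mostly with Zbed5, Vdac3 47.5%, mostly with the pseudogene Vdac3-ps1, and Timm8a1 41.0% with Gm9797. How reads that fit several genes were counted is not given in the sources used here, so the values of these 5 genes are uncertain. Vdac1 shared 1.88%, Vdac2 10.3%, Timm8b 6.82% and Mfn1 0.07%, while Mfn2, Timm10, Timm9 and Timm50 shared none.

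The log2 ratio followed GC content over the whole table but hardly within the members. Spearman's rho between log2 ratio and transcript GC content was 0.44 over 10606 genes and 0.05 over the 44 members, across genes that share the same libraries. Among the genes with the lowest GC content, when all were split into 3 groups of about equal size, the median log2 ratio was -0.39 for 14 members and -0.19 for all genes. In the middle group it was -0.14 for 12 members and 0.22 for all genes. In the group with the highest GC content, 18 members had a median of -0.29 and all genes one of 0.74. The members' median was below that of all genes in each group, with the widest gap where GC content was highest. With the GC trend removed, 16 members passed 2-fold towards the zygote, among them Timm50, Tomm40, Mtx1 and Pam16, and 2 passed it towards PB2, Vdac1 and Mfn1. Of all genes, 10.96% and 9.08% did so in the same setting.
Members had shorter transcripts than the table, with a median of 1718 bases against 3158. Spearman's rho between log2 ratio and transcript length was 0.36 within the members and 0.17 over all genes. With the length trend removed the members' median was -0.31 and that of all genes 0.00, and 9 members passed 2-fold towards the zygote and 1 towards PB2, as did 11.7% and 12.1% of all genes. The part of GC content and length in these results was not tested.

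**Figure D4:**
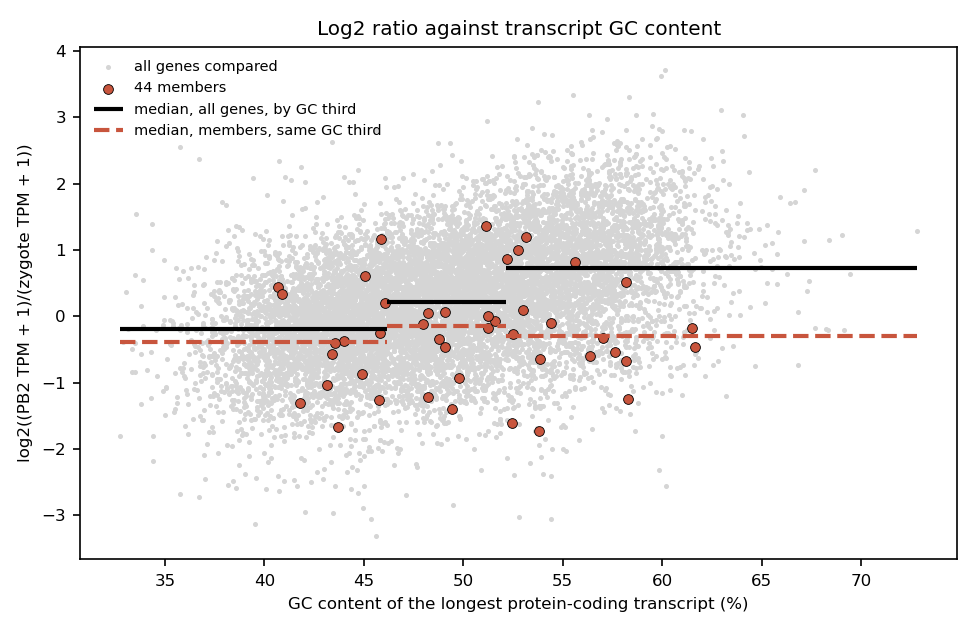
Log2 ratio against the GC content of the longest protein-coding transcript, with all genes compared in grey and the 44 members in red, and medians by GC group as a solid line for all genes and a dashed line for the members. The solid line climbs from -0.19 to 0.74, while the dashed line stays between -0.39 and -0.14.

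Other nuclear genes of mitochondria were set beside the members. The 75 mitochondrial ribosomal protein genes compared had a median log2 ratio of -0.39, with 73.3% lower in PB2. The 85 nuclear genes of the respiratory chain and ATP synthase had a median of -0.53, with 77.6% lower in PB2. Both medians lay below 0 like that of the members, and no test of a difference between lists could be made. The order of the lists depended on the setting. With the GC trend removed the medians were -0.60 for the ribosomal list, -0.96 for the respiratory list and -0.53 for the members. With the length trend removed they were -0.28, -0.25 and -0.31.
A list of further genes of import, dynamics, carriers and mitochondrial DNA, with 75 genes in the table, had a median of 0.07. It was -0.08 with the GC trend removed and 0.00 with the length trend removed. Of these genes 14, or 18.7%, were past 2-fold towards PB2 and 7, or 9.33%, towards the zygote, both near the background. The 8 matrix chaperones and co-chaperones had a median of -0.13. Dnajc15 and Dnajc19, which are co-chaperones of the import motor, were more than 2-fold higher in the zygote, with 70.2 against 25.2 TPM and 18.7 against 8.2 TPM. Of 12 processing and quality control proteases, with a median of -0.45, 8.33% were past 2-fold in each direction. Afg3l2 was past it in PB2 (22.9 TPM in the zygote, 47.9 TPM in PB2) and Immp2l in the zygote (5.2 and 0.9 TPM). Of 11 other import and MICOS factors, with a median of -0.26, 18.2% were past 2-fold in each direction. Phb2 and Mtch1 were past it in PB2, with 20.8 and 2 TPM in the zygote and 45.3 and 8.5 TPM in PB2. Minos1 and Apool were past 2-fold in the zygote, with 100.2 and 34.8 TPM there and 49.1 and 12.4 TPM in PB2.

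Among 17 other genes of mitochondrial dynamics and turnover, the median was 0.75. It was 0.49 with the GC trend removed and 0.45 with the length trend removed. Of the 17, 6 genes, or 35.3%, passed 2-fold towards PB2, against 18.9% of all genes compared. Towards the zygote 0 passed it, against 8.09%. Stoml2, an inner membrane scaffold that takes part in stress-induced fusion, had 21.9 TPM in the zygote against 126.5 in PB2. Pink1, the kinase that marks damaged mitochondria for removal, had 1.5 and 12 TPM. Slc25a46, an outer membrane protein that acts on fission and lipid exchange, had 0.9 and 8.6 TPM, and Rhot2, an anchor for mitochondrial transport along microtubules, had 0.8 and 6.5 TPM. Usp30, a deubiquitinase that opposes mitochondrial removal, had 17.7 and 45.3 TPM, and the ubiquitin ligase Mul1 had 3.4 and 9.4 TPM. These 6 genes and both mitofusins were higher in PB2, while Opa1 and, from the list, Mtfr1, Mtfr2, Mtfr1l, Trak2 and Mtus1 had lower values there.
The 12 carrier and calcium channel genes had a median of 0.01, which was -0.33 with the GC trend removed and 0.01 with the length trend removed. Of them 16.7% were past 2-fold in PB2, near the 18.9% of all genes compared. These were Letm1 (2.5 TPM in the zygote, 10.6 TPM in PB2) and Tspo (5.1 and 14.6 TPM), and 0 were past 2-fold in the zygote. Of 15 further genes of mitochondrial DNA replication and transcription, with a median of 0.17, Atad3a, Polrmt and Tk2 were past 2-fold in PB2 and Tefm and Mterf1a in the zygote.

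**Figure D5:**
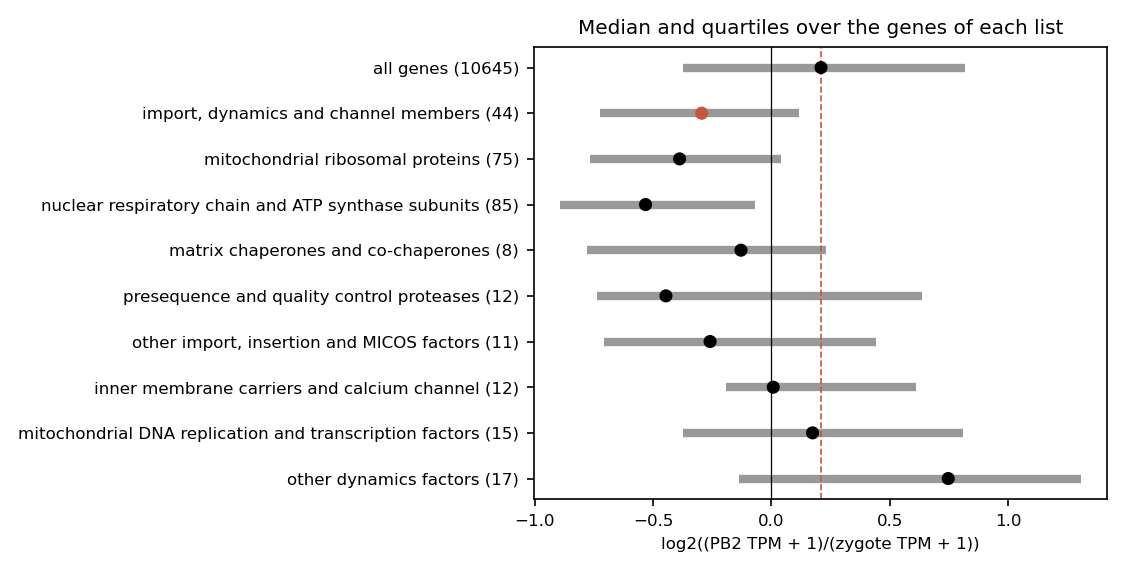
Median (point) and quartiles (bar) of the log2 ratio over the genes of each list, with the number of genes compared in parentheses and a dashed line at the median of all genes. The members (-0.29), the mitochondrial ribosomal proteins (-0.39) and the respiratory chain genes (-0.53) lie to the left of 0, and the other dynamics factors (0.75) to the right.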

How the data were processed

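Polyadenylated RNA of PB2 and of zygotes was amplified as full-length cDNA and sequenced, with 1 library of each. Per the submitters' processing notes and the methods, the authors called bases with CASAVA, aligned with HISAT2 2.0.4, counted with HTSeq 0.6.1p1 on an Ensembl annotation and normalized with DESeq2 1.18.1. OryCun2.0, a rabbit assembly, and GRCm38 are both named, and the identifiers are from mouse. The deposited values are TPM with 1 decimal, and how the authors computed TPM is not given in the sources used here. The depth behind a value is unknown, and no interval can be given for it. The 2 value columns were matched by name, the column named for the 1-cell stage to the zygote and that named pb to PB2, and 0 were left over.

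From the TPM values the log2 ratio with a pseudocount of 1 was taken, over genes with at least 1 TPM in either library, and a gene was counted at 2-fold. No test was run. Members and gene lists were chosen with earlier results of these data known, and every member is named. Transcript GC content and length are those of the longest protein-coding transcript in GENCODE M21 (GRCm38), found for 44 of 44 members and 11221 of all genes. Trends were removed by loess (span 0.3). Removal of the GC trend was tried on simulated data with a linear trend, and removal of the length trend was not tried on such data. Printed sequences are coding parts of the transcripts of GENCODE M21 tagged as principal. The sequence of 1 small TIM chaperone is not reported here. The alternatives were pseudocounts of 0.1 and 0.01, no filter or a filter at 5 TPM, thresholds of 1.5-fold and 4-fold, scaling of the zygote values, centring, and taking out the trend on GC content or on length. Values were computed in Python 3.11.15 with pandas 2.3.3, statsmodels 0.14.6 (loess), Biopython 1.88 (alignment), numpy 2.4.6 and scipy 1.17.1, and drawn with matplotlib 3.10.9.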

Additional observations from a re-analysis of the deposited data

How the results depend on the processing

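No paired analysis was possible because each group has 1 library. The members' median log2 ratio stayed below 0 under each alternative, from -0.53 with the GC trend removed to -0.29, and below the median of all genes. The ratio of summed levels, 1.38 in favour of the zygote, was 1.46 after removal of the 50 most abundant genes and those encoded in mitochondrial DNA and 1.27 without Timm8b. The count of members at least 2-fold higher in PB2, 4, was 1 with the ratios centred, 2 with the GC trend removed, 1 with the length trend removed and 5 with pseudocounts of 0.1 and 0.01, where Tomm20 was added. The share of all genes, 18.9%, was 13.0%, 9.08% and 12.1% in the first 3 of these settings and 24.6% and 24.7% with the pseudocounts. For the zygote the count of 9 became 16 with the GC trend removed, and the share of all genes went from 8.09% to 10.96%. A threshold of 1.5-fold gave 7 members in PB2 and 14 in the zygote, where 34.2% and 18.1% of all genes passed it. A threshold of 4-fold gave 0 in each direction, against 2.48% of all genes in PB2 and 0.695% in the zygote. Without a pseudocount, Polg was 7 times higher in PB2, and Mtx2 and Chchd5 were 6.29 and 11 times higher in the zygote. The pseudocount of 1 TPM brings these 3 low genes under 4-fold. Scaling the zygote values by 1.06 gave 3 in PB2 and 10 in the zygote, where 16.7% and 9.22% of all genes passed 2-fold. Of the 9 members higher in the zygote, 7 stayed past 2-fold in all 7 ways of computing the ratio, Timm17a fell short with the GC trend removed (-0.88) and Chchd1 with the length trend removed (-0.70). With a pseudocount of 0.01 the log2 ratios of Chchd5, Mtx2 and Polg were -3.42, -2.63 and 2.75, since a smaller pseudocount shrinks low values less. Medians of the role groups were recomputed as an alternative chosen after seeing the data. The cause of the other changes was not tested. A limit of 0.5 was used for single log2 ratios, 1.5 times for counts, and a 95% order-statistic interval over the 44 members for the median. That interval takes the genes as independent although they share the same libraries, and it does not measure spread between samples. With no read numbers, counting error limits the members under a few TPM by an unknown amount.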

Other observations

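Tefm, an elongation factor of mitochondrial transcription, had 4.9 TPM in the zygote and was listed at 0 in PB2. It was singled out after its values were seen. Polrmt, the polymerase it works with, had 4.3 TPM in the zygote against 11.3 in PB2, and Mterf1a, another factor of mitochondrial transcription, had 6.3 and 2.2 TPM. Atad3a, an inner membrane ATPase found with mitochondrial DNA, had 6.1 and 22.3 TPM, and Tk2, a kinase that supplies its nucleotides, had 26.7 and 54.8 TPM.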
